A study of Mus musculus with 10 samples.

Results

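The 909 Igk clonotypes described here were the productive clonotypes found in all 6 Igk libraries of the study, out of 21879 productive clonotypes in at least 1 library. A clonotype was a combination of a V gene, a J gene and the amino acid sequence of CDR3, the loop that spans the V-J junction, and a clonotype met in every library is called public in the following. The members were chosen by the deposited read counts (at least 1 productive read in each library), so the presence of these clonotypes in every group is how they were chosen and not a result. The rearranged Igk loci came from genomic DNA of B cells sorted from the peritoneal cavity of C57BL/6 mice aged 6 to 8 weeks. Wild-type B-1a cells (sorted as B220lo CD5+), Igll1-/- B-1a cells from the same gate and wild-type B-2 cells, the conventional B cells of the cavity, gave 2 libraries each. The Igll1 knockout, carried in the germline and therefore by every cell of those mice, removes λ5, a component of the surrogate light chain (SLC). The study calls its replicates independent experiments, and the sources do not say whether each came from a separate mouse, so p-values measure the spread between these samples. The libraries held 207931 to 282442 productive reads.

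An Igk light chain is made by joining 1 of many V genes to 1 of 4 functional J genes, with no D gene between them, and few bases are added at this junction. The first residues of a kappa CDR3 come from the V gene, which often ends in proline, and the last ones from the J gene, so cells of different animals can arrive at the same CDR3 independently. SLC stands in for the light chain in the pre-BCR, and cells without it cannot pass through that checkpoint in the usual way. B-1a cells are innate-like, self-renewing B cells whose receptors are biased towards certain V genes, among them IGKV4-91 and IGKV14-126. The comparison of wild-type with Igll1-/- B-1a cells asks whether the light chain repertoire of B-1a cells differs when no pre-BCR can form, and B-2 cells serve as the conventional repertoire.

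The CDR3 sequences on which the results turn are given first, as deposited, from the V-encoded start to the J-encoded end. The first 4 are the 3 public IGKV4-91 clonotypes with the most reads and their IGKJ5 relative ending in RT, followed by the 2 public IGKV14-126 clonotypes with the most reads. The next 4 share 1 V gene and 1 V-encoded start and differ only in the J gene and its ending. The others are the most abundant clonotypes of their V genes or those that differed most between groups.
IGKV4-91 IGKJ5: QQGSSIPLT
IGKV4-91 IGKJ2: QQGSSIPYT
IGKV4-91 IGKJ2: QQGSSIPRT
IGKV4-91 IGKJ5: QQGSSIPRT
IGKV14-126 IGKJ1: LQHGESPWT
IGKV14-126 IGKJ5: LQHGESPLT
IGKV1-110 IGKJ1: SQSTHVPWT
IGKV1-110 IGKJ2: SQSTHVPYT
IGKV1-110 IGKJ4: SQSTHVPFT
IGKV1-110 IGKJ5: SQSTHVPLT
IGKV8-30 IGKJ5: QQYYSYPLT
IGKV4-53 IGKJ5: QQWSSYPLT
IGKV8-24 IGKJ5: QQHYSTPLT
IGKV15-103 IGKJ5: QQGQSYPLT
IGKV3-7 IGKJ1: QHSWEIPWT
IGKV4-57-1 IGKJ5: QQYSGYPLT
IGKV7-33 IGKJ5: AQFYSYPLT
IGKV13-84 or IGKV13-85 IGKJ5: QQYWSTPLT

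Public clonotypes were few and large. They were 4.15% of the productive clonotypes and held 80.1% of the productive reads over all libraries, whereas the 14904 clonotypes found in a single library held 3.05%. Within a library they made up 12.1% to 18.8% of the productive clonotypes. A public clonotype had a median of 142 reads summed over the libraries, with a range from 8 to 48191, and 214 of the 909 had at least 1000 reads and held 89.5% of the public reads. Many members sat close to the limit of the rule, since 287 had a single read in at least 1 library and 264 had at least 10 reads in every library. Just outside it, 690 clonotypes were found in 5 libraries, with a median of 23.5 summed reads. Of these, 203 and 180 were missing only from replicate 1 and replicate 2 of Igll1-/- B-1a cells, 107 and 78 only from the wild-type B-1a libraries, and 56 and 66 only from the B-2 libraries. Igll1-/- replicate 1 had the fewest productive reads, 207931, and was the library most often lacking. Igll1-/- replicate 2 had 270557, more than the 262266 and 233578 of the wild-type B-1a libraries, and was lacking more often than they were. Whether depth set these absences was not tested.

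The public clonotypes made up 77.5% and 77.6% of the productive reads in wild-type B-1a, 85.7% and 85.8% in Igll1-/- B-1a and 77.1% and 78.2% in B-2 cells. Both Igll1-/- libraries lay above the other 4. Igll1-/- exceeded wild-type B-1a cells by 8.21 percentage points and B-2 cells by 8.12 percentage points, each with p = 0.333 in a two-sided exact permutation test, the smallest that 2 libraries against 2 can give. A clonotype missing from 1 library lowers the public share of the libraries that hold it, but not of the one that lacks it. Clonotypes were missing most often from the Igll1-/- libraries, so their higher share can follow in part from the rule. The differences and p-values are therefore a description. The 95% Wilson interval of each library's share was at most 0.169 percentage points to either side, but this covers counting error only, because PCR reads without molecular identifiers are not independent molecules. Wild-type B-1a and B-2 libraries overlapped, with a difference of −0.085 percentage points (exact permutation p = 1).

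Most of the gap between the B-1a genotypes rested on 1 clonotype and its label in 1 library. The IGKV14-126 IGKJ2 clonotype with the CDR3 LQHGESPYT, the most abundant one outside the public set, held 6.98% and 7.42% of the productive reads in wild-type B-1a cells, 0.059% and 0.051% in Igll1-/- B-1a cells and 0.363% in replicate 1 of B-2 cells. In replicate 2 of B-2 cells its 914 reads carried a label of unproductive, which kept it out of the public clonotypes. With its productive reads counted in, the public share became 84.5% and 85.01% in wild-type B-1a cells, 85.8% and 85.9% in Igll1-/- B-1a cells and 77.5% and 78.2% in B-2 cells. The difference between the B-1a genotypes then fell to 1.06 percentage points and that between wild-type B-1a and B-2 cells became 6.93 percentage points, both with exact permutation p = 0.333.

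**Figure D1:**
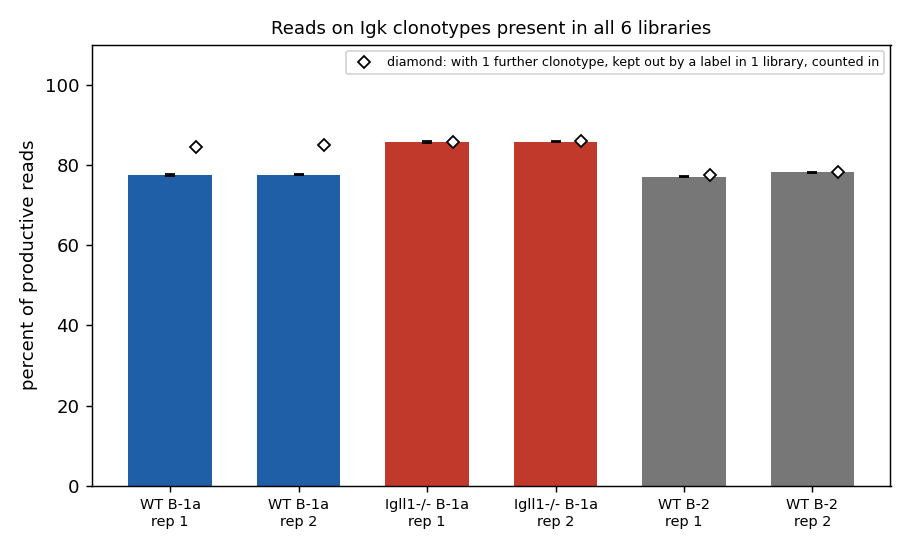
Percent of productive reads on the 909 public clonotypes in each library (bars, with 95% Wilson intervals), and the same share with the IGKV14-126 IGKJ2 clonotype that a label kept out counted in (diamonds). The bars stand at 77.1% to 78.2% in wild-type cells and at 85.7% and 85.8% in Igll1-/- cells, and the diamonds put wild-type B-1a cells at 84.5% and 85.01%.

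The reads were spread over the public clonotypes most evenly in B-2 cells and least evenly in Igll1-/- B-1a cells. The effective number of public clonotypes, which is the exponential of the Shannon entropy and counts how many equally abundant clonotypes would give the same evenness, was 143 and 148 in wild-type B-1a cells, 103 and 104 in Igll1-/- B-1a cells and 214 and 213 in B-2 cells. The 3 groups did not overlap, and each pair of groups gave the smallest possible exact permutation p, 0.333. In the same order, the 10 largest public clonotypes of a library took 32.1% and 28.8%, 39.5% and 39.0%, and 21.5% and 21.0% of its public reads. With LQHGESPYT counted in, the effective number in wild-type B-1a cells was 126 and 128, and the groups kept this order without overlap.

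CDR3 length and sequence were restricted. Of the 909 members, 804 had a CDR3 of 9 residues, 73 of 8, 30 of 10 and 2 of 7, and CDR3s of 9 residues held 90.5% to 92.2% of the public reads in every library. Among clonotypes found in 1 to 5 libraries, 69.7% had 9 residues. Proline was the third residue from the end in 87.8% of the members and in 71.7% of the others. The ending most used with each J gene, WT with IGKJ1, YT with IGKJ2, FT with IGKJ4 and LT with IGKJ5, was carried by 597 members with 82.2% of the public reads. These were 65.7% of the members, beside 56.3% of the others. RT, the most frequent other ending of IGKJ1, was found in 49 of its 198 members, and PT in 64 of the 510 members with IGKJ5. Among the others, RT was found in 1199 of 5520 with IGKJ1 and PT in 1244 of 9649 with IGKJ5, so neither ending was particular to the members. The median identity of the sequenced stretch to its germline V gene was 98.5% for members and 92.4% for the others. These features follow in part from the choice by presence, so they are given as a description.

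Many members lay close to a larger clonotype. By rule, 482 of the 909 differed by 1 residue from a clonotype with the same V gene, J gene and length and at least 10 times the reads, 63 repeated the CDR3 and J gene of a clonotype on another V gene with 10 times the reads, and 55 repeated a V gene and CDR3 on another J gene. These were 53.0%, 6.93% and 6.05% of the members, beside 62.8%, 17.8% and 6.13% of the other productive clonotypes, which carried the first 2 of these features more often. The 379 members with none of these features held 94.96% of the public reads. An example is the CDR3 QQGSSIPLT on IGKV4-91, whose ending is that of IGKJ5. It had 19597, 16055, 1374, 6847, 2445 and 1873 reads with IGKJ5 in the libraries, listed by group in the order used above, with replicate 1 first. With IGKJ2 it was also listed, at 57, 64, 9, 8, 2 and 3 reads, with the most reads again in the wild-type B-1a libraries. Whether such members came from cells, sequencing error or assignment was not tested.

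The members used 82 V gene labels, 4 of which named more than 1 gene, and were unevenly spread over them. IGKV1-110 had 83 public clonotypes, IGKV1-117 had 62, IGKV8-30 had 61, the label IGKV4-59 or IGKV4-68 had 37, IGKV8-24 had 35, IGKV4-57 had 32, IGKV10-96 had 29, IGKV4-91 had 28, and IGKV4-53 and IGKV5-48 had 27 each, as had IGKV14-111. The median V gene had 5. The 10 V genes with most members held 46.3% of the members, and 8 of them were also among the 10 with most public reads. In the RefSeq annotation (assembly GRCm38.p6), used here for gene order only, 77 of the 82 labels matched a V gene, and 49.2% of the matched members used one of the 81 J-proximal V genes of the 162 annotated. In reads, these J-proximal genes held 50.6% and 47.5% in wild-type B-1a cells, 54.3% and 55.1% in Igll1-/- B-1a cells and 53.9% and 55.4% in B-2 cells, so the wild-type B-1a libraries were the lowest.

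Weighted by reads, several V genes separated the groups. IGKV4-91, a B-1a-biased gene for which the study had added a primer, took 14.7% ± 0.05 (SD, n = 2) of the public reads in wild-type B-1a cells, 3.13% ± 1.30 in Igll1-/- B-1a cells and 1.61% ± 0.19 in B-2 cells. IGKV1-110 ran the other way between the B-1a genotypes, with 5.81% ± 0.99 in wild-type, 10.7% ± 0.76 in Igll1-/- and 6.80% ± 0.23 in B-2 cells. IGKV15-103 held 2.63% ± 0.45, 6.95% ± 2.15 and 2.97% ± 0.41 in the same order, and IGKV4-53 3.16% ± 0.24, 6.19% ± 2.01 and 2.67% ± 0.19. For these 4 V genes the 2 Igll1-/- libraries did not overlap with the 2 wild-type B-1a libraries. IGKV3-7 stood at 6.51% and 10.9% in the Igll1-/- libraries against 3.16% and 2.33% in wild-type B-1a and 1.34% and 0.93% in B-2 cells. IGKV8-30, IGKV8-24, IGKV4-57 and IGKV10-96 overlapped between the B-1a genotypes, as IGKV1-117 did not, at 5.59% and 5.79% in wild-type against 3.86% and 5.38% in Igll1-/- cells. With 2 libraries a group no such difference can pass an exact permutation test.

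**Figure D2:**
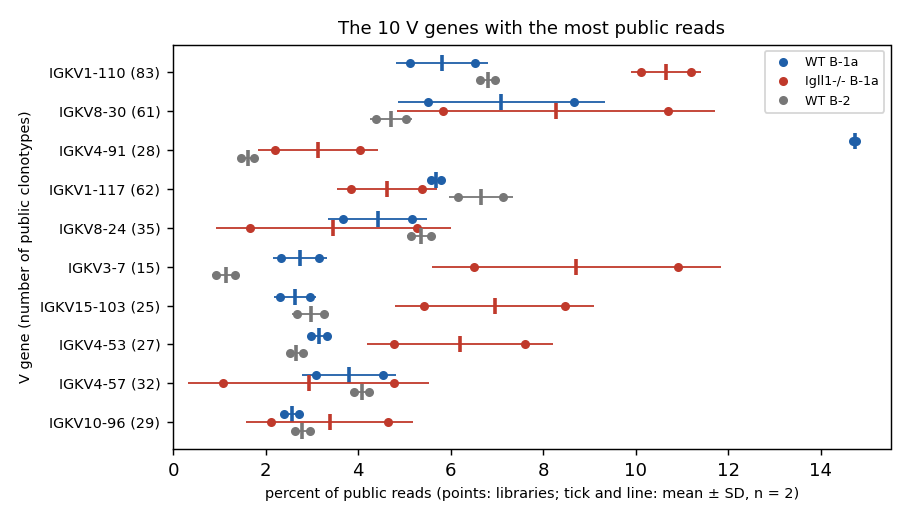
Percent of public reads on each of the 10 V genes with the most public reads, by library (points) with the mean and SD of each group (n = 2). IGKV4-91 stands at 14.7% in wild-type B-1a cells and below 5% elsewhere, and IGKV1-110, IGKV3-7, IGKV15-103 and IGKV4-53 are highest in the Igll1-/- libraries.

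IGKJ5 led the J genes. Of the members, 510 used IGKJ5, 198 IGKJ1, 186 IGKJ2, 12 IGKJ4 and 1 IGKJ3, which is a pseudogene in the mouse. IGKJ1 held 15.8% and 14.8% of the public reads in wild-type B-1a cells, 22.2% and 29.5% in Igll1-/- B-1a cells and 18.0% and 17.7% in B-2 cells. Both Igll1-/- libraries lay above the other 4, with a difference of 10.6 percentage points from wild-type B-1a and 8.01 from B-2 cells (each exact permutation p = 0.333). Without its 2 largest members, SQSTHVPWT on IGKV1-110 and QHSWEIPWT on IGKV3-7, IGKJ1 held 14.8% and 13.6%, 19.9% and 18.0%, and 17.2% and 16.9%, in the same order of groups. IGKJ5 held 68.2% and 67.3%, 62.8% and 53.0%, and 63.1% and 62.9%, with wild-type B-1a cells the highest. IGKJ2 lay between 14.4% and 19.2% in every library and overlapped between the B-1a genotypes, and IGKJ4 was at most 0.55%. The order for IGKJ5 and IGKJ2 rested on the label of LQHGESPYT, an IGKJ2 clonotype. With it counted in, IGKJ5 held 62.5% and 61.5% in wild-type B-1a cells, below Igll1-/- replicate 1 and both B-2 libraries at 62.7% to 62.9%, and IGKJ2 held 22.7% and 24.7%, above all other libraries. IGKJ1 then held 14.5% and 13.5% in wild-type B-1a cells, and both Igll1-/- libraries still lay above the other 4.

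Among clonotypes of 1 to 5 libraries, IGKJ2 reached 46.6% and 48.7% of the reads in wild-type B-1a cells, and 22.6% and 23.4% without the clonotype LQHGESPYT on IGKV14-126. In the public clonotypes, 68 V-encoded starts were found with IGKJ1, IGKJ2 and IGKJ5, each with its usual ending, and 9 starts with IGKJ4 as well. Within these 68, where the V gene is held constant, the IGKJ1 share of the 3 was higher in both Igll1-/- than in both wild-type B-1a libraries for 19 starts and lower for 12. For the other starts the libraries of the 2 genotypes overlapped. The median IGKJ1 share over the 68 starts was 16.3% and 18.7% in wild-type B-1a and 28% and 20.8% in Igll1-/- B-1a cells. In B-2 cells it was 19.7% and 18.4%. Some of the 68 starts, among them PQSTHVP, SQGTHVP and FQGSHAP, differ by 1 residue from the larger SQSTHVP or FQGSHVP. Such starts may not be independent of the larger one, so the counts of starts are given as a description. SQSTHVP on IGKV1-110 had an IGKJ1 share of 36.3% and 29.99% in wild-type B-1a cells, 35.4% and 70.3% in Igll1-/- B-1a cells and 23.2% and 20.5% in B-2 cells. FQGSHVP on IGKV1-117 had 15.8% and 24.1%, 35.3% and 49.1%, and 22.9% and 23.4%.

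**Figure D3:**
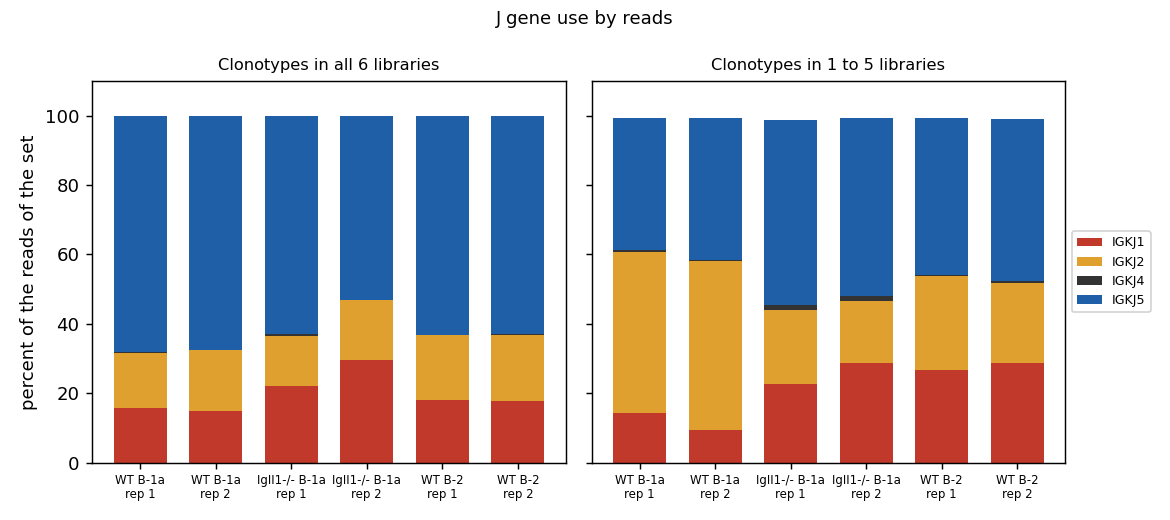
J gene use by reads in each library, for the clonotypes in all 6 libraries (left) and those in 1 to 5 libraries (right), with each bar summing to nearly 100%. IGKJ5 is the largest part of every public bar, and IGKJ1 is larger in the Igll1-/- libraries, at 22.2% and 29.5%, than in the other 4.

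The 20 public clonotypes with the largest mean share over the libraries took 30.7% and 30.4% of the productive reads in wild-type B-1a cells, 37.4% and 37.2% in Igll1-/- B-1a cells and 23.4% and 23.0% in B-2 cells. All 20 had a CDR3 of 9 residues, the usual ending of their J gene, proline as the third residue from the end, and a V stretch within 0.1% of germline identity. IGKJ5 was used by 15 of them, IGKJ1 by 3 and IGKJ2 by 2. Their counting intervals reached at most 0.103 percentage points to either side.

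The leading clonotype was QQGSSIPLT on IGKV4-91 with IGKJ5. It held 7.47% and 6.87% of the productive reads in wild-type B-1a cells, 0.661% and 2.53% in Igll1-/- B-1a cells and 0.866% and 0.667% in B-2 cells. Wild-type B-1a cells lay above all other libraries, and Igll1-/- replicate 1 lay just below B-2 cells. QQYYSYPLT on IGKV8-30 held 3.24% and 2.28%, 2.86% and 4.36%, and 1.78% and 1.81%, with both B-1a groups above B-2 cells. QQWSSYPLT on IGKV4-53 held 2.24% and 2.01%, 3.44% and 5.07%, and 1.52% and 1.44%, and here the Igll1-/- libraries were the highest. SQSTHVPWT on IGKV1-110 with IGKJ1 stood at 0.838% and 0.896%, 2.32% and 4.47%, and 0.695% and 0.662%, and was again highest in both Igll1-/- libraries. QQGQSYPLT on IGKV15-103 held 0.891% and 1.55%, 5.53% and 2.05%, and 1.502% and 1.12%.

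Other large clonotypes were high in only 1 of the Igll1-/- libraries. QHSWEIPWT on IGKV3-7 with IGKJ1 held 7.60% of the productive reads in Igll1-/- replicate 2, the largest share of any public clonotype in any library, but 0.161% in replicate 1 and 0.083% to 0.178% in the 4 wild-type libraries. The same start with IGKJ5, QHSWEIPLT, went the opposite way, at 1.18% in replicate 1 and 0.0085% in replicate 2 of Igll1-/- B-1a cells. QQYSGYPLT on IGKV4-57-1 held 4.47% in Igll1-/- replicate 1 and 0.016% in replicate 2, against 2.11% and 1.62% in wild-type B-1a cells and 0.581% and 0.629% in B-2 cells. By contrast QQHYSTPLT on IGKV8-24 held 2.61% and 2.74% in the B-2 libraries and 2.12% and 1.74% in wild-type B-1a cells, and only Igll1-/- replicate 2 stood apart, at 0.785%.

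**Figure D4:**
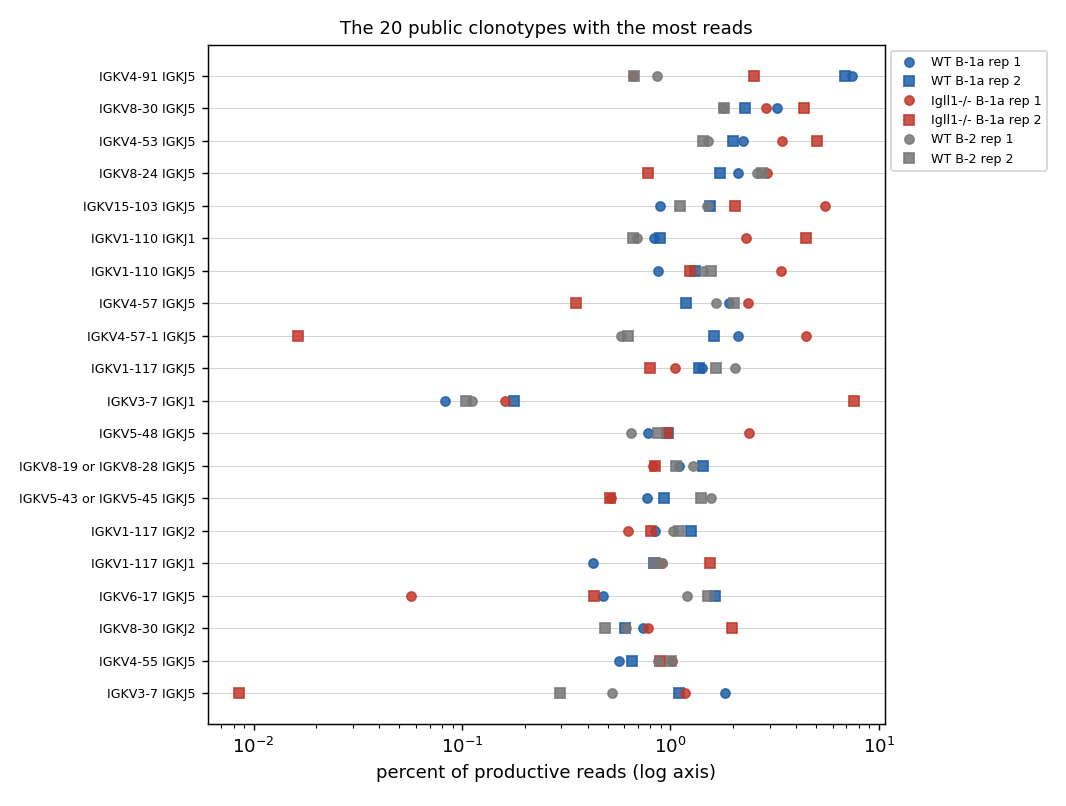
Percent of productive reads (log axis) of the 20 public clonotypes with the largest mean share, named by V and J gene, in each of the 6 libraries. IGKV4-91 IGKJ5 is highest in wild-type B-1a cells at 7.47% and 6.87%, and the red points of the Igll1-/- replicates are far apart for IGKV4-57-1 IGKJ5 and for both IGKV3-7 clonotypes.

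The replicates differed most in Igll1-/- B-1a cells. The share of public reads that would have to move between clonotypes to turn 1 replicate into the other was 11.9% in B-2 cells, 20.2% in wild-type B-1a cells and 51.4% in Igll1-/- B-1a cells. Between groups, this measure was 46.2% to 49.2% for wild-type against Igll1-/- B-1a libraries, 45.1% to 48.6% for Igll1-/- B-1a against B-2 and 29.7% to 35.7% for wild-type B-1a against B-2. By this measure, to which large clonotypes contribute most, the 2 Igll1-/- libraries were farther from each other than either was from any wild-type library. Counted by clonotypes this did not hold. Between the Igll1-/- replicates, 33.1% of the public clonotypes differed more than 4-fold. Between Igll1-/- and B-2 libraries 36.6% to 41.1% did, and between Igll1-/- and wild-type B-1a libraries 32.6% to 34.7%. Of the public clonotypes with at least 0.5% of the reads in 1 replicate, 25 of 55 differed more than 4-fold between the Igll1-/- replicates, 4 of 41 between the wild-type B-1a replicates and 0 of 38 between the B-2 replicates. The chi-square between replicates was 31204 on 662 degrees of freedom in wild-type B-1a, 151280 on 686 in Igll1-/- B-1a and 14721 on 695 in B-2 cells, so each pair differed by more than read counting alone would give, and all 6 libraries were counted. This test covers counting error only, since PCR reads are not independent molecules. Whether fewer founding rearrangements or PCR set these differences was not tested.

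The clonotypes farthest apart between the Igll1-/- replicates, named here after their values were seen, used IGKV4-60, IGKV6-23 and IGKV4-80. QQWSSSPLT on IGKV4-60 with IGKJ5 had 5731 reads in Igll1-/- replicate 1 and 18 in replicate 2, against 695 and 706 in wild-type B-1a and 957 and 1279 in B-2 cells. HQWSSYPT on IGKV4-80 with IGKJ5 had 2414 and 5 reads, against 62 and 200 in wild-type B-1a and 174 and 606 in B-2 cells. In both cases the wild-type libraries lay between the Igll1-/- replicates. The public clonotypes were most often highest in an Igll1-/- library, 188 of them in replicate 1 and 207 in replicate 2. The wild-type B-1a libraries were highest for 107 and 105, and the B-2 libraries for 137 and 165. This count takes 1 library at a time, so it does not show that the Igll1-/- replicates were higher together. Of the 745 public clonotypes with at least 30 summed reads, 169 were higher and 195 lower in Igll1-/- than in wild-type B-1a cells without overlap. These were 22.7% and 26.2%, beside 12.3% and 23.9% of all 1958 productive clonotypes with that many reads. Against B-2 cells, 156 were higher and 278 lower. These were 20.9% and 37.3%, beside 11.2% and 38.2% of the 1958, so the lower shares were close to those over all.

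**Figure D5:**
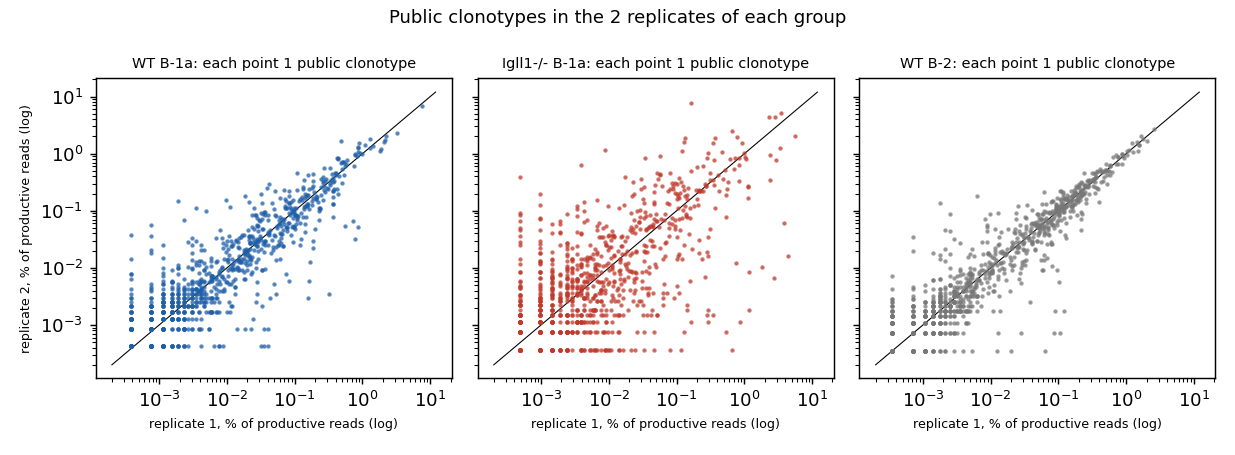
Percent of productive reads of each of the 909 public clonotypes in replicate 1 (horizontal, log axis) and replicate 2 (vertical, log axis), with a panel for each group and the line of equality. The points scatter least in B-2 cells and most in Igll1-/- B-1a cells, where 25 of the 55 clonotypes with at least 0.5% in 1 replicate differed more than 4-fold.

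The reads of single clonotypes were compared between groups with edgeR's quasi-likelihood test, fitted on the 1958 productive clonotypes with at least 30 reads over the 6 libraries, of which 745 were public. The 164 public clonotypes below this minimum were not tested. Clonotypes outside the public set have a library at 0 by definition, so the values over all tested clonotypes are a background and not a test of the public ones. At an adjusted p-value under 0.05, 0 public clonotypes were called in each of the 3 comparisons by edgeR, as were 0 of all tested, 0%. The smallest adjusted p-values were 0.325 for Igll1-/- against wild-type B-1a, 0.324 for Igll1-/- B-1a against B-2 and 0.477 for wild-type B-1a against B-2. Before adjustment, 16 public clonotypes were higher and 49 lower in Igll1-/- than in wild-type B-1a cells at p under 0.05, where 1.58% and 9.09% of all tested clonotypes were. For Igll1-/- B-1a against B-2 the counts were 18 and 67 (1.53% and 13.4% of all tested) and for wild-type B-1a against B-2 13 and 10 (2.35% and 4.55%).

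Other tools made calls on the same counts. DESeq2 also scaled the libraries otherwise, by size factors from clonotypes with reads in every library, which are the public ones. Its calls thus differ from those of edgeR in scaling as well as in test. DESeq2 called 47 public clonotypes in Igll1-/- against wild-type B-1a cells, 9 higher and 38 lower (1.53% and 5.67% of all tested), 50 between Igll1-/- B-1a and B-2 cells, 14 higher and 36 lower (1.69% and 5.87%), and 8 between wild-type B-1a and B-2 cells, 7 higher and 1 lower (0.97% and 0.358%). limma on log2 shares, added after the data were seen, called 8, 21 and 0. The 8 were all lower in Igll1-/- cells (1.63% of all tested), and of the 21, 2 were higher and 19 lower (0.102% and 3.83%). Without overlap between the libraries, 169 public clonotypes were higher and 195 lower in Igll1-/- than in wild-type B-1a cells (12.3% and 23.9% of all tested), 156 higher and 278 lower than in B-2 cells (11.2% and 38.2%), and 143 higher and 286 lower in wild-type B-1a than in B-2 cells (15.4% and 34%). The median log2 fold change of the tested public clonotypes was 0.07, −0.21 and −0.32 in the 3 comparisons, beside −0.12, −1.43 and −0.66 over all tested.

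For 26 of the 28 public IGKV4-91 clonotypes, both libraries of wild-type B-1a cells lay above both of B-2 cells (15.4% of all tested clonotypes did), and for 21 of 28 above both of Igll1-/- B-1a cells (23.9% of all tested), with none the opposite way. None passed edgeR's adjusted threshold, where the smallest adjusted p-values by edgeR were 0.477 and 0.325, and 18 of the 28 are near neighbours, by the rule above, of a larger clonotype. QQGSSIPYT with IGKJ2 had 3339 and 2960 reads in wild-type B-1a cells, 18 and 77 in Igll1-/- B-1a cells and 325 and 377 in B-2 cells. Its log2 fold change in Igll1-/- against wild-type B-1a cells was −6.09 with a standard error of 0.85, and the adjusted p-value was 0.325 by edgeR, 5.29e-06 by DESeq2 and 0.0369 by limma. The 2 genotypes did not overlap, and the Igll1-/- libraries also lay below the B-2 libraries, with a log2 fold change of −2.74 ± 0.73 (SE) and an adjusted p-value of 0.324 by edgeR.

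QQGSSIPRT with IGKJ2 had 2427 and 2366, 215 and 488, and 339 and 295 reads in the same order, a log2 fold change of −2.77 ± 0.58 (SE) between the B-1a genotypes and 3.11 ± 0.59 for wild-type B-1a against B-2 cells, with edgeR adjusted p-values of 0.407 and 0.477. The Igll1-/- libraries overlapped with the B-2 libraries here. QQGSSIPLT fell by 2.17 ± 0.66 (SE) on the log2 scale in the fitted difference between the B-1a genotypes, with an edgeR adjusted p-value of 0.407. Not every IGKV4-91 clonotype followed this order: QQGSSIPFT with IGKJ2 had 70 and 193 reads in wild-type B-1a cells, 1576 and 33 in Igll1-/- B-1a cells and 11 and 8 in B-2 cells, and was high in Igll1-/- replicate 1 only.

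IGKV14-126, the other B-1a-biased gene, had 8 public clonotypes, and its leading clonotype LQHGESPYT was kept out by the label described above. Over all its productive clonotypes the gene held 9.41% and 10.5% of the reads in wild-type B-1a cells, 0.257% and 0.268% in Igll1-/- B-1a cells and 1.19% and 0.648% in B-2 cells, and its public clonotypes held 1.53% and 2.07%, 0.181% and 0.18%, and 0.634% and 0.47%. By this V gene the wild-type B-1a libraries were above the B-2 libraries, as their label has it, whereas the libraries labelled Igll1-/- B-1a were below B-2. IGKV4-91 over all productive clonotypes was above B-2 in both, at 12.5% and 12.8%, 2.07% and 3.68%, and 1.49% and 1.35%. No surface marker was measured in these libraries.

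LQHGESPWT, with IGKJ1, had 2621 and 2341 reads in wild-type B-1a cells, 70 and 260 in Igll1-/- B-1a cells and 283 and 233 in B-2 cells. Its log2 fold change between the B-1a genotypes was −3.95 ± 0.75 (SE), with an adjusted p-value of 0.365 by edgeR and 0.00615 by DESeq2. LQHGESPLT, with IGKJ5, had 1126 and 1930, 297 and 212, and 1265 and 916 reads, so that wild-type B-1a and B-2 cells overlapped and both Igll1-/- libraries were below them. The third of the gene's public clonotypes by reads, LQHGESPPT with IGKJ5, had 9 and 266, 2 and 5, and 195 and 141 reads, and its wild-type B-1a replicates lay on both sides of the B-2 libraries.

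Among the 264 public clonotypes with at least 10 reads in every library, the 5 with the smallest unadjusted edgeR p-values in each comparison were looked up after the values were seen. Beside the IGKV4-91 and IGKV14-126 clonotypes, AQFYSYPLT on IGKV7-33 had 3390 and 4240 reads in wild-type B-1a cells, 17 and 133 in Igll1-/- B-1a cells and 1145 and 1398 in B-2 cells. Its log2 fold change between the B-1a genotypes was −5.76 ± 1.04 (SE), with an adjusted p-value of 0.351 by edgeR, 0.00024 by DESeq2 and 0.0486 by limma. All 4 wild-type libraries lay above both Igll1-/- libraries. SQSTHVPWT on IGKV1-110 was the only one of the 5 that was higher in Igll1-/- cells, with 2199 and 2092, 4817 and 12088, and 1963 and 1859 reads. It had log2 fold changes of 1.97 ± 0.46 (SE) against wild-type B-1a and 2.32 ± 0.46 against B-2 cells, with edgeR adjusted p-values of 0.407 and 0.324.

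Against B-2 cells the clonotypes with the smallest p-values were mostly lower in Igll1-/- B-1a cells. QQYWSTPLT, assigned to IGKV13-84 or IGKV13-85, had 308 and 348 reads in wild-type B-1a cells, 92 and 142 in Igll1-/- B-1a cells and 2170 and 2443 in B-2 cells. Its log2 fold change against B-2 was −4.08 ± 0.60 (SE) in Igll1-/- and −2.62 ± 0.56 in wild-type B-1a cells, with edgeR adjusted p-values of 0.324 and 0.477. Both B-1a groups lay below B-2 cells. QNDHSYPLT on IGKV8-28 had 1257 and 1589, 469 and 610, and 3072 and 3289 reads, and the 3 groups did not overlap. QQHYSTPLT on IGKV6-25 had 199 and 117, 90 and 81, and 1196 and 905 reads, and QQSNEDPYT on IGKV3-4 had 368 and 138, 14 and 25, and 377 and 528 reads. For these 3 the fitted log2 fold changes in Igll1-/- B-1a against B-2 cells were −2.32, −3.35 and −4.32.

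The clonotypes of the V genes whose public reads were higher in Igll1-/- cells are given by counts, where 12.3% of all tested clonotypes were higher and 23.9% lower in both Igll1-/- than in either wild-type B-1a library. These V genes were picked on the same reads, so an excess of higher members follows in part from the choice. The counts are therefore a description and not a test, and members are not replicates. Of the 83 public IGKV1-110 clonotypes, 42 were higher in both Igll1-/- libraries than in either wild-type B-1a library and 5 lower than in either, with a median log2 fold change of 1.30 over the 65 tested. Of the 25 IGKV15-103 clonotypes, 15 were higher and 0 lower, with a median of 1.93 over 20 tested. Of the 27 IGKV4-53 clonotypes, 22 were higher and 2 lower, with a median of 1.501 over 25 tested. Of the 15 IGKV3-7 clonotypes, 4 were higher and 3 lower, with a median of 0.29 over 12 tested. Many of these members are near neighbours of a larger clonotype of their V gene, 67 of 83 for IGKV1-110, 18 of 25 for IGKV15-103, 21 of 27 for IGKV4-53 and 10 of 15 for IGKV3-7, and so may not be independent of it.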

How the data were processed

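Igk rearrangements were amplified from genomic DNA with a degenerate V primer plus primers for B-1a-biased genes such as IGKV4-91, and products of 100 to 280 bp were sequenced (the labels name MiSeq, the methods a HiSeq). The authors used IMGT/High-V-QUEST for assignment and deposited, per library, 1 row per clonotype with its read count, functionality and identity to the germline V gene in percent. A V gene's share reflects its primer and the cells, and a read count mixes cells with PCR.

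Rows with the productive label were summed per V gene, J gene and CDR3. Members and lists were chosen with earlier results of these data known. Shares are of productive reads (207931 to 282442 per library). Clonotypes with at least 30 summed reads were tested in 1 fit of all 6 libraries with edgeR 4.0.16 (quasi-likelihood, total productive reads as library size, Benjamini-Hochberg adjustment). The standard errors given with its fold changes are the absolute log2 fold change divided by the square root of the F statistic of that test. They are not a separate estimate of the spread, and the p-values are those of the test. The fit was also run on simulated data, but no recovery rate is given here. The lack of edgeR calls therefore does not show that no clonotype differed. DESeq2 1.42.0, limma, TMM factors, other filters, a replicate block and leaving out each library were alternatives. Group means were compared with exact permutation tests (scipy 1.17.1), single-library shares have 95% Wilson intervals, and R 4.3.3 and Python 3.11.15 were used. Named clonotypes are the 20 with the largest mean share, the 3 largest of IGKV4-91 and of IGKV14-126, and up to 5 per direction and comparison among calls without overlap, which named none; the others were named after their values were seen. Named V genes are the 10 with most members and the 10 with most public reads. The Igh libraries were not used here.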

Additional observations from a re-analysis of the deposited data

Results flagged for a closer look

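Reads outside the productive rows fell on 50 combinations that were in frame in all 6 libraries but not productive in all 6 by their labels, which would make 959 public clonotypes in place of 909. The largest was IGKV14-126 IGKJ2 with the CDR3 LQHGESPYT, with 914 reads labelled unproductive in replicate 2 of B-2 cells. IGKV9-128, with 6 of the 50, was unproductive throughout: LQHASSPLT with IGKJ5 had up to 6966 reads, in replicate 2 of wild-type B-1a cells, and LQHASSPWT with IGKJ1 up to 5554, in replicate 1. KQSYNLYT on IGKV8-21 with IGKJ2 was productive in 5 libraries and had 384 reads labelled unproductive in Igll1-/- replicate 2.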

How the results depend on the processing

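The number of public clonotypes fell from 909 to 264 with at least 10 reads in every library, to 427 without near neighbours and to 379 without near neighbours and mixed labels, and was 965 to 1112 when 1 library was left out. The higher public read share of Igll1-/- B-1a cells kept its direction in every alternative run, from 1.01 percentage points over wild-type B-1a (in-frame rows whatever their label) to 10.8 (members with at least 10 reads in every library). Wild-type B-1a minus B-2 changed sign. Its −0.085 percentage points became 1.91 without labels of more than 1 V gene, 6.54 with in-frame rows and 6.93 with LQHGESPYT counted in. They became 5.12 with V subgroups and 0.435 without near neighbours and mixed labels. When 1 library was left out the difference was −0.611 to 0.441, B-2 replicate 2 giving the positive value. As a share of clonotypes it was 2.92, but this is another measure. There the numerator is 909 in every library, so only the number of productive clonotypes varies.

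edgeR's 0 calls became, in the order Igll1-/- against wild-type B-1a, Igll1-/- B-1a against B-2 and wild-type B-1a against B-2, 47, 50 and 8 with DESeq2, 13, 10 and 1 with no filter on low counts, 8, 21 and 0 with limma, and 1, 0 and 1 on in-frame rows. The replicate block called 0 in each, and the libraries share only a number, with correlations of their deviations of −0.0083, 0.0031 and 0.0091. Leaving out each library in turn also gave 0 calls. Of 26 fold changes of 12 named clonotypes, 433 of 442 alternative values kept their direction. The exceptions were, in Igll1-/- B-1a against B-2 cells, QQGSSIPLT (−0.21 to 1.72 when 1 library was left out, the lowest without Igll1-/- replicate 2), QQGSSIPRT with IGKJ2 (−0.12 to 0.68, likewise) and LQHGESPWT (0.10 with TMM, 0.0033 with DESeq2, and −1.44 to 0.069 when 1 library was left out, the highest without Igll1-/- replicate 1), and, in wild-type B-1a against B-2 cells, LQHGESPPT (0.43 with TMM, 0.34 with DESeq2, and −4.10 to 0.93 when 1 library was left out, from without wild-type B-1a replicate 2 to without its replicate 1, and 0.22 without B-2 replicate 1). In-frame rows, the V subgroup, mixed labels, robust edgeR (0 calls), limma and LQHGESPYT counted in were chosen after seeing the data. Members with few reads limit these comparisons: 287 have 1 read in some library, and whether depth set their presence was not tested.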
